A study of Homo sapiens with 6 samples.

Results

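Metallothioneins are small cysteine-rich proteins that bind zinc, copper and cadmium and buffer free zinc in the cell. Their genes are switched on by MTF1, a zinc-sensing transcription factor that binds short metal response elements in their promoters when free zinc rises. MTF1 also drives SLC30A1, the zinc exporter of the plasma membrane, so that metallothionein and SLC30A1 transcripts serve as readouts of zinc and cadmium exposure, and metallothionein transcription also responds to glucocorticoids, oxidative stress and cytokines.

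Described here are 10 genes of this response, chosen by gene symbol out of 40205 genes listed in the count table: 8 metallothioneins (MT1A, MT1E, MT1F, MT1G, MT1H, MT1M, MT1X and MT2A), SLC30A1 and MTF1. All 10 were found by symbol, and 6 passed the filter on low counts and could be tested. RNA-seq was run on cells labelled HepG2, a human hepatoma line, in 3 untreated samples (the controls, called Control-1 to Control-3 here) and 3 samples given cationic liposomes (CLs-1 to CLs-3). Per-sample values are given below by replicate number, from 1 to 3. The CLs were made of DOTAP, cholesterol and DSPE-mPEG in phosphate-buffered saline. The medium of both groups was DMEM with 10% fetal bovine serum, penicillin and streptomycin, and by the labels the CLs-treated group received 120 μM for 24 h, whereas the study's discussion gives the dose as a mass per volume. The labels name no added zinc or other metal, and give the controls a dose of 0 μM and an exposure of 0 h. Whether both groups spent the same time in culture is not said. Neither the labels nor the methods say what the control wells received in place of CLs. The study calls the samples independent, without saying whether each came from a culture of its own, so p-values here measure the spread between these samples, which may be technical. Counts of samples in the same group differed by more than counting noise, with a chi-square per degree of freedom of 7.65 to 32.0.

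Between 11418527 and 13998946 reads per library were counted on genes, so 3 counts, taken as the floor of what this depth shows, correspond to 0.208 to 0.263 CPM (the count over the library total after TMM scaling). The label HepG2 was checked against 12 hepatocyte markers, among them ALB, AFP, APOB, TTR and FGB, and they were absent or nearly so. Their summed counts were 5, 18 and 16 in the controls and 101, 4 and 0 in the CLs-treated samples, and none of the 12 had enough reads to be tested. Fibroblast markers summed to 8225 to 13298 counts, mostly of COL3A1 and COL1A1, while COL1A2 was counted 1044 times in CLs-1 and no more than 2 times in any other library. The rest of that list was near 0 outside CLs-1, with DCN at 2 to 5 counts, LUM at 0 and THY1 at 0 to 1. In CLs-1 these had 19, 7 and 58 counts, and POSTN had 0 to 2 in every library. Red blood cell markers had 477 counts in CLs-1 against 0 to 4 elsewhere, and markers of steroid-making cells 482 against 11 to 32. Leukocyte markers had 151 to 314 counts, mostly of CD68, while CD74 had 21 in CLs-1 and 0 to 1 elsewhere. Scaled for depth, the leukocyte sum was highest in CLs-3, at 23.2 CPM against 21.7 CPM in CLs-1. Endothelial markers had 1 to 43 counts, with the most in Control-3. The libraries are therefore called by their labels, and what cells they came from was not tested.

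Matches to the core of the metal response element, through which this family is known to be regulated, were sought in upstream sequences. RefSeq promoters were matched for 5 of the 10 genes, MT2A, MT1X, MT1H, SLC30A1 and MTF1, and the 250 bases before the transcription start were searched on both strands for the metal response element core, spelled TGCACNC or TGCGCNC. The sequences of 4 of them follow because they hold at least 1 match and belong to genes at very different levels in these libraries. They are written 5′ to 3′ on the gene's strand with each match in capitals, and a match on the other strand reads as its reverse complement. On GRCh38.p14 they lie at chr16:56608334-56608583 (plus strand, MT2A), chr16:56682220-56682469 (plus strand, MT1X), chr16:56669564-56669813 (plus strand, MT1H) and chr1:211579162-211579411 (minus strand, SLC30A1), directly upstream of the first exon.
MT2A: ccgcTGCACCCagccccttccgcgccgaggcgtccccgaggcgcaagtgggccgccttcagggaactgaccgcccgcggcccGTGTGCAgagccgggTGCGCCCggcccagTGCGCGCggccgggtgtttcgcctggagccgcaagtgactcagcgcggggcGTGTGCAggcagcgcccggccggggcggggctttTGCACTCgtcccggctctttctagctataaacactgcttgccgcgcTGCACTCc
MT1X: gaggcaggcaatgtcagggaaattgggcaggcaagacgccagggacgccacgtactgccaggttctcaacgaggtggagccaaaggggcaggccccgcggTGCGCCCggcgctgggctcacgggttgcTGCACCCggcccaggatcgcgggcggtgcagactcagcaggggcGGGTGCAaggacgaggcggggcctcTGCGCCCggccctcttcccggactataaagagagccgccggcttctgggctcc
MT1H: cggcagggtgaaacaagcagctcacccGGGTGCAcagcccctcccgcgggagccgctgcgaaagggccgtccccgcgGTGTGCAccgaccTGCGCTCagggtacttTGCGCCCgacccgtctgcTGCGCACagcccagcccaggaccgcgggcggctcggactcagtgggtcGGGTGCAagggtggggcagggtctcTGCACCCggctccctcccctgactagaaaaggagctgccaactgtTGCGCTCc
SLC30A1: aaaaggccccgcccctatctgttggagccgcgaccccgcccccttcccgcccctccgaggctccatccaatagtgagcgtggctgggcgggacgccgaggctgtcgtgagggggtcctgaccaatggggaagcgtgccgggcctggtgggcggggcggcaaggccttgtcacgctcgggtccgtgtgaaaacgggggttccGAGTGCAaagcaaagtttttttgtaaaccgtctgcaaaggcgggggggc

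MT2A held 7 matches, MT1X 4, MT1H 8, SLC30A1 1 and MTF1 0, with no overlap between matches. Of 35116 promoters of the same length, 24.8% held at least 1 such site, 0.208% at least 4, 0.0228% at least 7 and 0.0142% at least 8. The match nearest the start lay at bases -8 to -2 in MT2A and MT1H, and both MT1X and MT1H had one at bases -53 to -47. A match describes letters in this window and says nothing of whether MTF1 was bound in these cells.

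**Figure D1:**
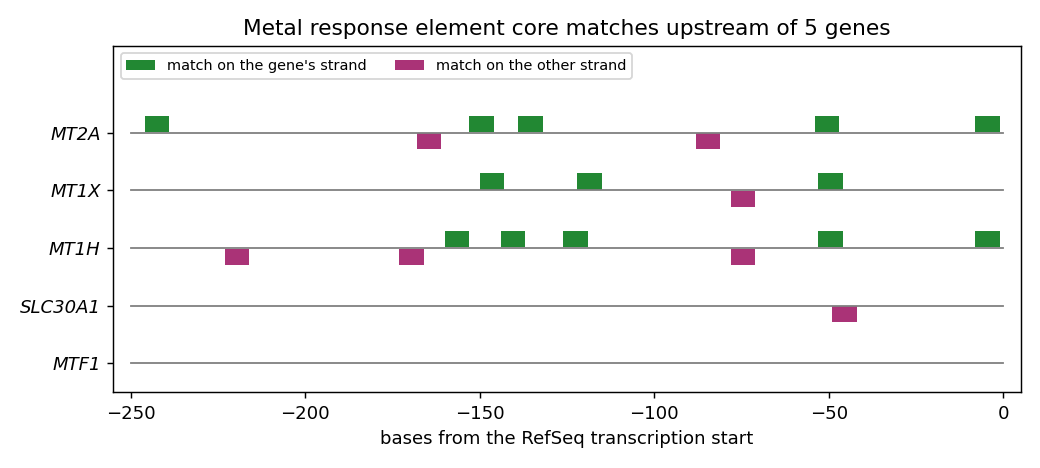
Matches to the metal response element core in the 250 bases before the transcription start of MT2A, MT1X, MT1H, SLC30A1 and MTF1, with distance from the start in bases on the x axis. Green boxes above a line are matches on the gene's strand and purple boxes below it matches on the other strand. MT1H holds 8, MT2A 7, MT1X 4, SLC30A1 1 and MTF1 0.

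MT2A, MT1E and MT1X carried nearly all metallothionein reads, and several other family members were at the floor. Over the 21 metallothionein rows of the table (8 members, 13 further genes and pseudogenes), MT2A, MT1E and MT1X together took 90.2% ± 0.833 (SD, n = 3) of the reads in controls and 89.6% ± 0.651 (SD, n = 3) after CLs. Per kilobase of transcript, the level of MT2A ranged from 139 to 309 CPM per kb over the 6 libraries, above every value of MT1E (60.8 to 87.8) and MT1X (46.4 to 108), whose ranges overlapped. SLC30A1 followed at 7.29 to 10.7 CPM per kb, then MTF1 at 1.72 to 2.36 and MT1F at 1.02 to 2.51, which overlapped. MT1G reached 0.213 to 3.40 CPM per kb, and overlapped MT1F and MTF1. These levels depend on the transcript model chosen, with lengths of 786 bases for MT2A, 704 for MT1E, 450 for MT1X and 690 for MT1F. MT1A, MT1M and MT1H had at most 2, 3 and 1 counts in any library, at or under the floor throughout, so their levels cannot be compared between the groups. MT1H, whose promoter printed above holds the most core matches of the 5, had 1 read over all 6 libraries.

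**Figure D2:**
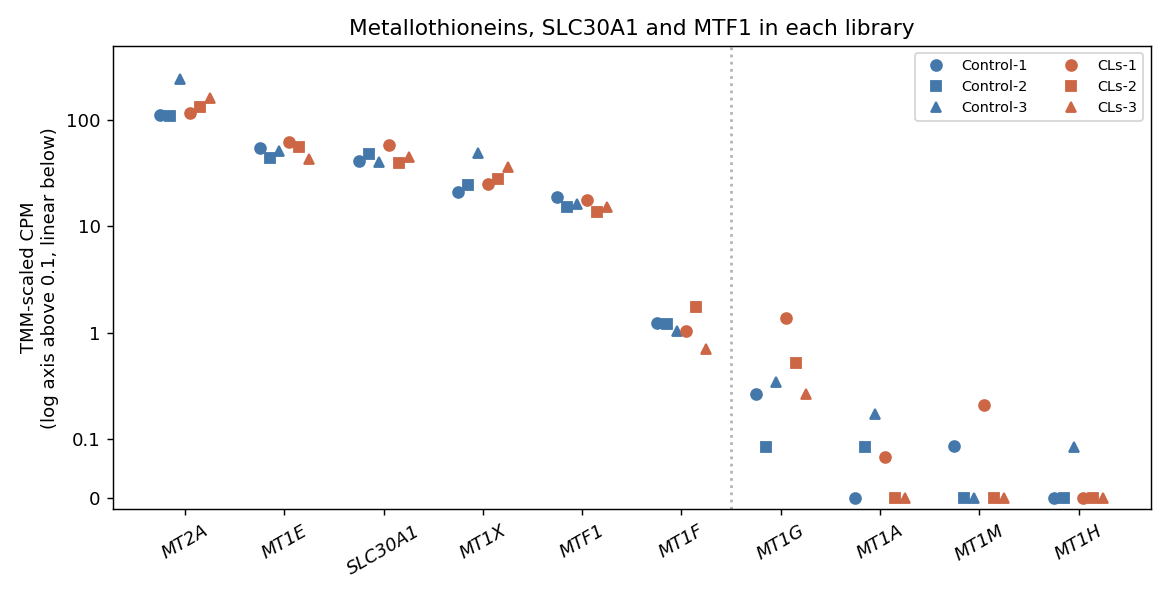
TMM-scaled CPM (y axis, logarithmic above 0.1 and linear below) of the 10 genes, ordered by mean CPM, with 1 point per library (blue Control, orange CLs; circle, square and triangle for numbers 1, 2 and 3). MT2A is highest in Control-3 at 243 CPM, and the 4 genes to the right of the dotted line had too few reads to be tested.

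The comparison between the groups asked which transcripts differ in cells given CLs. None of the 10 genes was called up- or down-regulated, and in each of the 6 that had enough reads (MT2A, MT1E, MT1X, MT1F, SLC30A1 and MTF1) the CLs-treated samples overlapped the control samples. Across all 15047 genes tested with edgeR (quasi-likelihood F test, Benjamini-Hochberg adjustment), 13 (0.0864%) met the criteria of a fold change above 1.5 or below 0.67 with an adjusted p under 0.05. Of these 2 (0.0133%) were higher and 11 (0.0731%) lower in the CLs-treated group. At an unadjusted p under 0.05 there were 874 (5.81%), none of them among the 10 genes, and groups that do not overlap were seen in 1734 (11.5%). No member was called with DESeq2 either. The median log2 fold change of the 6 tested members was -0.04, against 0.01 over all tested genes, with 3 higher and 3 lower. An exact two-sided permutation test of 3 against 3 samples cannot go below p = 0.10, and its values for the 6 genes ran from 0.5 to 1. In bulk samples such as these, fewer cells of a type and less RNA per cell cannot be told apart.

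MT2A, the most abundant metallothionein, was measured at 111, 109 and 243 CPM in the controls and at 118, 133 and 163 CPM in the CLs-treated samples. Control-3 stood above all other libraries, and the 3 CLs-treated samples lay between it and the other two controls. The means were 155 ± 76.6 CPM in controls and 138 ± 22.7 CPM after CLs (SD, n = 3 in each group). The log2 fold change was -0.17, with a standard error (SE) of 0.28 and an adjusted p of 0.998 by edgeR's quasi-likelihood test. The 95% interval of the fold change ran from 0.586 to 1.35. Both the direction and the interval turned on Control-3. Without it the log2 fold change was 0.32 (SE 0.17, adjusted p = 0.903) and the interval of the fold 0.969 to 1.61, with all 3 CLs-treated samples above the 2 remaining controls.

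MT1X, a further zinc-inducible family member, showed nearly the same order of libraries. It was at 20.9, 24.4 and 48.6 CPM in the controls and at 24.9, 27.7 and 36.1 CPM in the CLs-treated samples. Control-3 was again the highest library. The means were 31.3 ± 15.1 and 29.5 ± 5.85 CPM (SD, n = 3 in each group), and the log2 fold change was -0.09 (SE 0.28, 95% interval of the fold 0.611 to 1.45, adjusted p = 0.998). Without Control-3 the log2 fold change was 0.38 (SE 0.20, interval of the fold 0.957 to 1.77, adjusted p = 0.908 by the same test). Of the 50-base stretches of the MT1X transcript, 45.1% also occur in transcripts of other genes of GENCODE 29. MT2A had 4.88%, MT1E 5.34%, MT1G 20.2% and MT1H 20.4%. For MT1X the largest part, 29.2%, was shared with AC026461.1, and whether the annotation used for counting held that gene is not known here. Reads from shared stretches are open to being split or discarded in counting.

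MT1E did not share that order. Its values were 54.8, 44.2 and 51.4 CPM in the controls and 61.8, 56.0 and 42.8 CPM in the CLs-treated samples, so that CLs-1 was the highest library and CLs-3 the lowest. Its log2 fold change was 0.10 and its adjusted p 0.998, and the 95% interval of the fold ran from 0.833 to 1.37. Without CLs-1 the log2 fold change of MT1E was -0.02. MT1F was measured at 1.03 to 1.22 CPM in the controls and 0.701 to 1.73 CPM in the CLs-treated samples, from 8 to 20 counts per library. Its log2 fold change was 0.00 (SE 0.40), and its interval, 0.546 to 1.84, passes the fold change criterion on both sides.

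MT1G had 3, 1 and 4 counts in the controls and 20, 6 and 3 counts in the CLs-treated samples, which was below the filter on low counts. The high value was in CLs-1, the library that also held most of the red blood cell and steroid-making cell marker reads given above. Their part in that value was not tested. The exact two-sided permutation p of MT1G was 0.2. With no filter on low counts its log2 fold change was 1.66 (SE 0.70), and it was not called.

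Because metallothionein transcripts are close in sequence, their reads were also summed. The sum over the 21 rows was 209.5, 197.7 and 377.0 CPM in the controls and 226.6, 243.7 and 269.9 CPM in the CLs-treated samples. Control-3 was again the highest, and all 3 CLs-treated samples were above the other two controls. The means were 261.4 ± 100.3 and 246.8 ± 21.8 CPM (SD, n = 3 in each group), a difference smaller than the spread between the controls.

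Ratios of counts within a library do not depend on how the libraries are scaled. MT2A had between 4.48 and 5.33 reads for each MT1X read in all 6 libraries, and the counting intervals of the lowest (3.94 to 5.10, Control-2) and the highest (4.64 to 6.11, Control-1) overlapped. The number of MT2A reads per MT1E read varied far more. It was 2.03 in Control-1, 2.48 in Control-2 and 4.73 in Control-3, and 1.91, 2.38 and 3.80 in the CLs-treated samples. In both groups the sample numbered 3 had the highest ratio, with counting intervals of 4.33 to 5.17 in Control-3 and 3.44 to 4.20 in CLs-3, which do not overlap those of the other 4 libraries. MT2A made up 64.5% (Wilson 95% interval 63.1 to 65.9%) of the metallothionein reads in Control-3 and 60.2% (58.5 to 61.9%) in CLs-3, against 52.0 to 55.4% in the others. These intervals cover counting error only. Over the 6 libraries, Pearson's r of log2(CPM + 1) was 0.98 between MT2A and MT1X and -0.19 between MT2A and MT1E, given as a description since Control-3 weighs heavily in it.

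**Figure D3:**
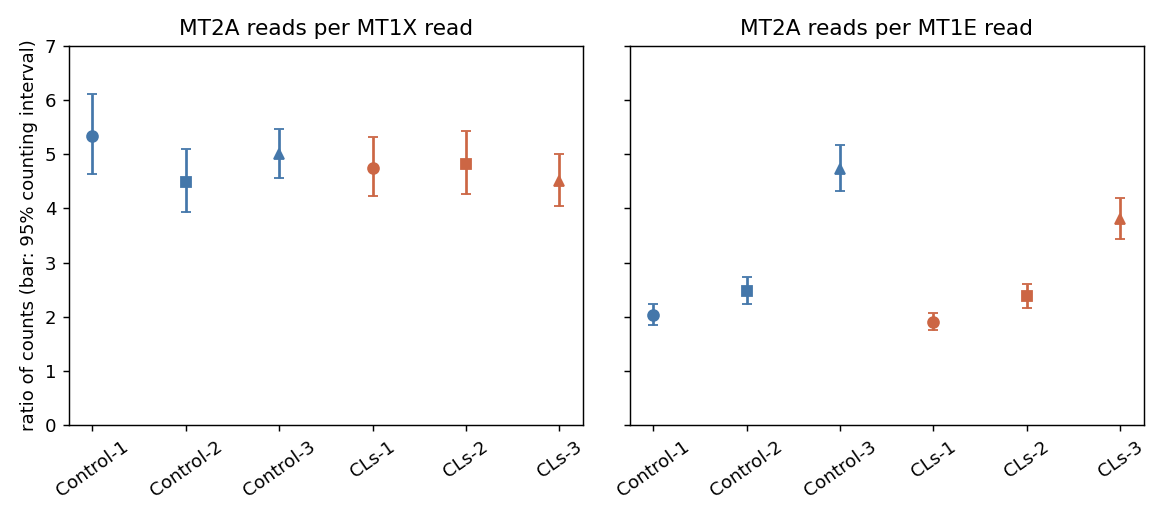
MT2A reads per MT1X read (left) and per MT1E read (right) in each library, with the ratio of counts on the y axis and bars for the 95% counting interval (blue Control, orange CLs). The left ratio stays between 4.48 and 5.33, while the right one reaches 4.73 in Control-3 and 3.80 in CLs-3 against 1.91 to 2.48 in the other 4.

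Reads were also counted on pseudogene rows. MT2P1, a processed copy of MT2A, had counts equal to 9.10 to 13.4% of those of MT2A, and MT1XP1 to 11.7 to 16.6% of those of MT1X. MT2P1 was at 14.5, 12.2 and 22.1 CPM in the controls and 14.1, 17.4 and 21.7 CPM in the CLs-treated samples, and MT1XP1 was highest in Control-3, at 6.86 CPM. Whether these reads came from the pseudogenes or from the parent transcripts cannot be told apart in these counts. Of the 13 further metallothionein rows 3 had enough reads to be tested, MT2P1, MT1XP1 and MT1P3, with log2 fold changes of 0.12, -0.30 and -0.33 and none called.

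SLC30A1, which moves zinc out of the cell, was at 41.2, 47.6 and 40.3 CPM in the controls and at 58.6, 39.9 and 45.4 CPM in the CLs-treated samples. CLs-1 was the highest library, and the other two CLs-treated samples lay within or just below the range of the controls. The log2 fold change of SLC30A1 was 0.16 (SE 0.17, 95% interval of the fold 0.868 to 1.44, adjusted p = 0.998 by edgeR's quasi-likelihood test). Without CLs-1 it was -0.01. No 50-base stretch of its transcript occurs in another gene. MTF1 itself was at 18.8, 15.3 and 16.2 CPM in the controls and 17.8, 13.7 and 15.2 CPM in the CLs-treated samples. Its log2 fold change was -0.11 (SE 0.18), with an interval of the fold from 0.709 to 1.22. With 1 library left out in turn, the upper limit of SLC30A1 reached 1.61 (without Control-2), past the fold change criterion. The upper limit of MT1E reached 1.53 (without CLs-3) and the lower limit of MTF1 0.635 (without Control-2).

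The remaining zinc transporters gave no call either. Of the SLC30 exporters other than SLC30A1, 6 of 9 could be tested, with a median log2 fold change of 0.18, 5 higher and 1 lower. SLC30A5, which loads zinc into the secretory pathway, was at 26.9, 28.7 and 24.3 CPM in the controls and 40.8, 29.2 and 30.7 CPM in the CLs-treated samples, which did not overlap. It was the 1 exporter of these 6 without overlap, against 11.5% of all tested genes. Its log2 fold change was 0.34 (SE 0.17, adjusted p = 0.889 by edgeR's quasi-likelihood test). SLC30A6 and SLC30A7, of the same compartment, had log2 fold changes of 0.24 and 0.26, and their highest values, 34.5 and 13.2 CPM, were both in CLs-1. Without CLs-1 the median of the 6 exporters was 0.02.

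Of the SLC39 importers, 11 of 14 could be tested, with a median log2 fold change of 0.02, 6 higher and 5 lower. SLC39A11, SLC39A6 and SLC39A10 had the smallest p-values of this family, with log2 fold changes of 0.32, 0.21 and -0.28 in that order, the lowest adjusted p being 0.956. SLC39A10, which MTF1 is known to repress, was at 45.7, 49.4 and 65.1 CPM in the controls and 54.6, 32.1 and 45.0 CPM in the CLs-treated samples, with overlap. The groups did not overlap in 1 of the 11 importers, against 11.5% of all tested genes. This was SLC39A7, which releases zinc from the endoplasmic reticulum and is named here after its values were seen. It was at 250 to 272 CPM in the controls and 276 to 286 CPM in the CLs-treated samples, a log2 fold change of 0.11 (SE 0.12).

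**Figure D4:**
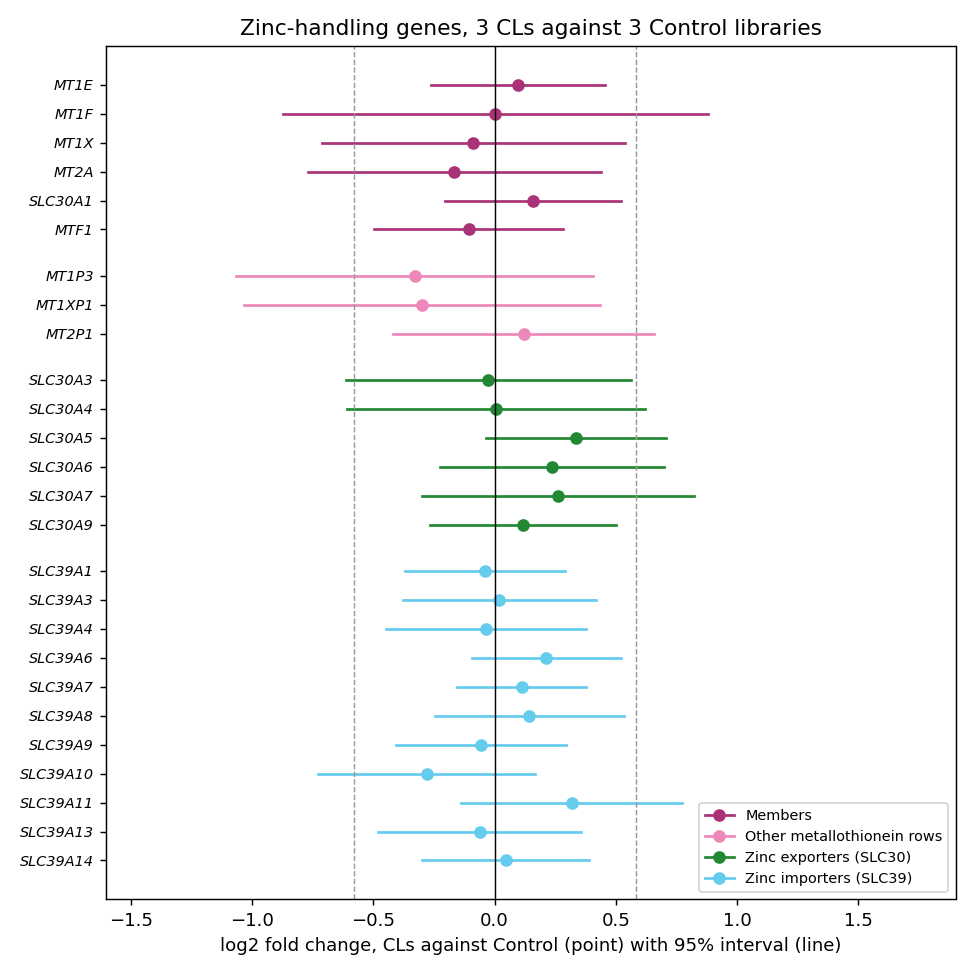
Log2 fold changes of the CLs-treated against the control group (points) with 95% intervals (lines) for the 6 tested members, 3 further metallothionein rows, 6 SLC30 exporters and 11 SLC39 importers, and dashed lines at folds of 0.67 and 1.5. Every interval includes 0, and the points lie between -0.33 and 0.34.

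Of 5 reported MTF1 targets outside the metallothioneins, 3 could be tested and none was called. GCLC, the catalytic subunit of glutamate-cysteine ligase in glutathione synthesis, was at 75.3, 75.3 and 44.0 CPM in the controls and 124, 88.2 and 112 CPM in the CLs-treated samples, which did not overlap. It was the 1 gene of these 3 without overlap, against 11.5% of all tested genes. Its log2 fold change was 0.73 (SE 0.21, adjusted p = 0.351 by edgeR's quasi-likelihood test). Without the filter on low counts GCLC was called (adjusted p = 0.0249 by the same test). The study, using EBSeq, counts GCLC among its differentially expressed genes. SEPW1, a selenoprotein, and SLC39A10 had log2 fold changes of 0.13 and -0.28. Of 13 genes of copper and other metal handling, 12 could be tested, with none called and a median log2 fold change of 0.08. ATP7B, the copper-exporting ATPase of hepatocytes, was at 7.38 to 8.29 CPM in the controls and 5.10 to 7.13 CPM in the CLs-treated samples, with a log2 fold change of -0.33 (SE 0.21, adjusted p = 0.951). SLC31A2 and CCS, the latter the copper chaperone of superoxide dismutase, had log2 fold changes of 0.27 and 0.14.

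Stress genes that heavy metals also induce differed among themselves in direction between the groups. All 10 of the list could be tested, 7 were higher and 3 lower, with a median log2 fold change of 0.28 and none called. Without CLs-1 that median was -0.02, and without Control-3 it was 0.05. The groups did not overlap in 2 of the 10, HMOX1, heme oxygenase 1, and SRXN1, sulfiredoxin, against 11.5% of all tested genes. HMOX1 was at 41.4, 40.0 and 15.2 CPM in the controls and 89.1, 78.9 and 55.5 CPM in the CLs-treated samples. Its log2 fold change was 1.21 (SE 0.31, adjusted p = 0.288 by edgeR's quasi-likelihood test), and without the filter it was called (adjusted p = 0.000543). The study, using EBSeq with the same fold change criterion, lists HMOX1 as up-regulated at that log2 fold change. SRXN1 was at 327, 301 and 125 CPM and 406, 448 and 346 CPM (adjusted p = 0.801). GCLM, the modifier subunit of glutamate-cysteine ligase, was at 46.8, 49.6 and 22.1 CPM and at 77.9, 51.3 and 46.0 CPM (adjusted p = 0.889). In all 3 of these genes Control-3 was the lowest library, the reverse of MT2A and MT1X. The other genes of the list were also lowest in Control-3, except HSPA6, which is named after its values were seen. HSPA6 was at 0.515 CPM in Control-3 and at 0.432 CPM in Control-2.

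Of 9 genes of the glucocorticoid response, the receptor gene NR3C1 among them, 7 could be tested, with none called and a median log2 fold change of -0.33. DUSP1, a phosphatase of MAP kinases, was at 205, 169 and 242 CPM in the controls and 137, 155 and 164 CPM in the CLs-treated samples, without overlap, with a log2 fold change of -0.43 (SE 0.16, adjusted p = 0.653). DUSP1 was the 1 gene of these 7 without overlap, against 11.5% of all tested genes. PER1 and TSC22D3 were lower by mean, with log2 fold changes of -0.33 (adjusted p = 0.872) and -0.53 (adjusted p = 0.884). In DUSP1, PER1 and TSC22D3 Control-3 was the highest library. Without Control-3 the median of the 7 genes was 0.06.

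MT2A and MT1X in Control-3 stood 2.20 and 2.14 times above the mean of Control-1 and Control-2. Among all tested genes, 1.94% had a ratio at or above that of MT2A, and the median ratio was 0.998. MT1E, SLC30A1 and MTF1 had ratios of 1.04, 0.908 and 0.95. Of the glucocorticoid list, KLF9 and TSC22D3 had ratios of 2.04 and 1.68. The rest of its tested genes were lower: NR3C1, FKBP5, DUSP1, PER1 and SGK1 had 1.21, 1.23, 1.29, 1.30 and 1.31. Of these, NR3C1 and FKBP5 were highest in CLs-1 and SGK1 in CLs-3. Of the stress genes, HMOX1, SRXN1 and GCLM had 0.373, 0.398 and 0.459, and the rest of that list had 0.339 to 0.811. KLF9, NR3C1, FKBP5 and SGK1 are named after their values were seen. The part of these genes in the metallothionein values was not tested.

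**Figure D5:**
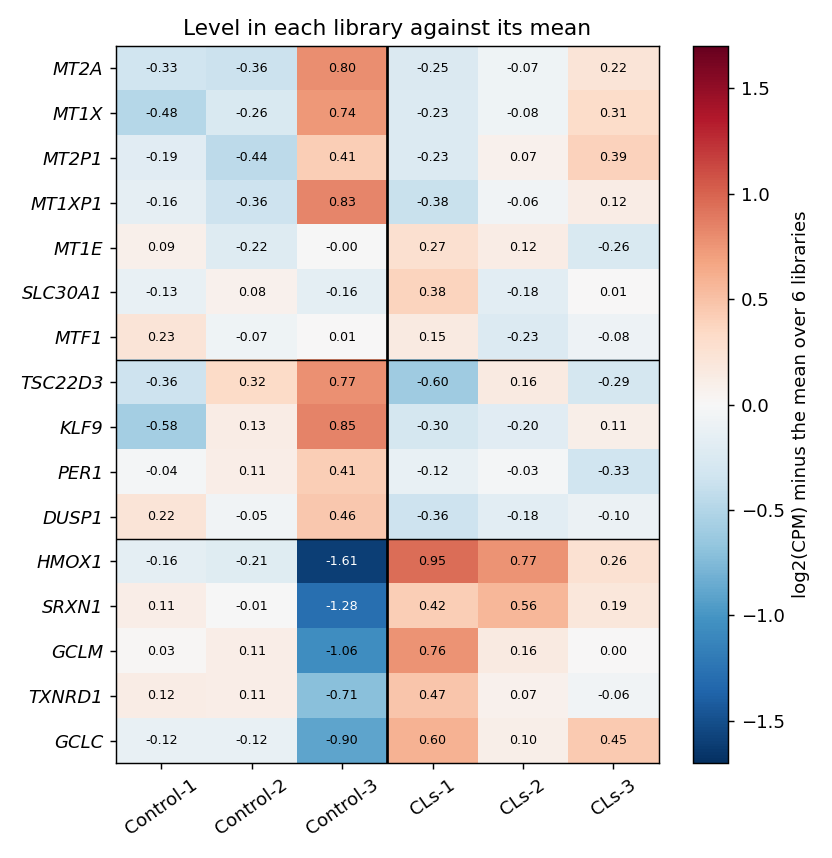
Log2 CPM minus its mean over the 6 libraries (colour and printed value) for metallothionein rows, SLC30A1 and MTF1 (top), glucocorticoid response genes (middle) and stress genes with GCLC (bottom), with libraries in columns and a black line between Control and CLs. Control-3 stands at 0.80 in MT2A, 0.85 in KLF9 and -1.61 in HMOX1, and KLF9 and TXNRD1 were added after their values were seen. Other tested genes of the glucocorticoid and stress lists, among them NR3C1, FKBP5 and SGK1, are not shown.

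The genes most like the metallothioneins over the 6 libraries were sought with Pearson's r between log2(CPM + 1) and its mean over MT1E, MT1F, MT1X and MT2A. The 5 highest were CRYL1, C8orf44, NICN1, XYLT2 and PLXNA3, with r from 0.967 to 0.973. Each was highest in Control-3, CRYL1 for example at 4.97 CPM against 1.91 to 3.03 CPM elsewhere. Their adjusted p-values between the groups were 0.998 or 0.999 by edgeR's quasi-likelihood test. Of 15040 genes, 24 had an r of at least 0.95, and with Spearman's rho 8 did, so the likeness is a description of these 6 libraries.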

How the data were processed

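Per the labels, libraries were made with the Ion Total RNA-Seq Kit v2.0 and sequenced single-end on Ion Proton. The authors mapped filtered reads with MapSplice and deposited counts, whole numbers of reads for each of 40205 gene symbols in 6 samples, without normalization. The submitters' processing notes name HTSeq 0.6.1, hg19 and GRCh37; how reads matching several places were handled is not given in the sources used here, and it bears on near-identical metallothionein rows.

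Counts were filtered with filterByExpr (15047 genes left), TMM-scaled and fitted with edgeR 4.0.16 in R 4.3.3 (quasi-likelihood F test, with condition the single term, all 6 samples). Calls needed a Benjamini-Hochberg adjusted p under 0.05 over all tested genes and a fold above 1.5 or below 0.67. Standard errors came from the F statistic, and 95% intervals from these and the total degrees of freedom. EBSeq, the authors' test, was not used here. The script was tested on simulated data. Transcript lengths and shared 50-base stretches came from GENCODE 29 on GRCh38 (the transcript matched to RefSeq, then the principal one, then the longest), and promoters from RefSeq on GRCh38.p14. No coordinates on the build of the counts are given.

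The genes and lists were chosen with earlier results of these data known. Named were the 10 members, per list the genes called or else up to 3 with the smallest p, and the 5 genes most alike; others are marked. The alternatives were DESeq2 1.42.0, other scalings and filters, no fold criterion, the replicate number as a block, summed metallothionein rows and each sample left out. Leaving out Control-3 and CLs-1 together was added after the data were seen. Between 11418527 and 13998946 counts per sample were used.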

Additional observations from a re-analysis of the deposited data

How the results depend on the processing

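No member was called under any alternative run, and MTF1 kept its direction in all of them. Over all genes, 2 were called higher and 11 lower; DESeq2 called 15 and 89, edgeR without a filter on low counts 58 and 113, and library size alone gave 6 lower. Adding the replicate number as a block, 12 and 56 were called, and without Control-3 and CLs-1 together 21 and 81. With 1 sample left out in turn, 1 to 3 and 2 to 6 were called. The cause of these shifts was not tested. No gene of the other lists was called, except HMOX1 (adjusted p = 0.000543) and GCLC (0.0249), 2 genes, without the filter, and 1, HMOX1 (0.00468), with the block. The block changed no other call among the members and the genes of these lists, and MT1F had a log2 fold change of -0.04 with it. The samples share only a number: the deviations of same-numbered samples correlated at 0.0998, 0.122 and 0.333 across genes, with differently numbered samples at 0.085 at most. Each sample thus correlated best with its own number, a hint from the data and not from the design.

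With 1 sample left out in turn the log2 fold change ran from -0.36 to 0.32 for MT2A, -0.31 to 0.38 for MT1X, -0.02 to 0.23 for MT1E, -0.38 to 0.25 for MT1F, -0.01 to 0.28 for SLC30A1 and -0.22 to -0.01 for MTF1. Without Control-3 and CLs-1 together it was 0.42 for MT2A (adjusted p = 0.188), 0.49 for MT1X (0.245), 0 for MT1E and -0.06 for SLC30A1. The median of the members ran from -0.08 to 0.11 with 1 sample left out, and was 0.03 with the metallothionein rows summed, where 2 single members remain. The scalings moved the median of all genes to at most 0.04. Depth limits MT1A, MT1G, MT1H and MT1M, which edgeR's filter removed.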

Other observations

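The genes whose log2(CPM + 1) followed MT2A alone most closely were looked up after its values were seen. The 5 highest of 15040 genes were ZNF865, PLSCR1, TMCO6, SPINK4 and IFI6, with Pearson's r from 0.992 to 0.999 over the 6 libraries, given as a description. IFI6 was at 15.8, 15.0 and 37.9 CPM in the controls (numbers 1 to 3) and at 16.3, 19.9 and 26.6 CPM in the CLs-treated samples. PLSCR1, a phospholipid scramblase, was at 23.4, 23.8 and 33.9 CPM and at 24.1, 25.2 and 27.6 CPM. ZNF865 was at 13.0, 12.7 and 19.6 CPM and at 13.1, 14.3 and 15.9 CPM, and TMCO6 at 17.4, 16.1 and 31.4 CPM and at 17.0, 19.8 and 23.2 CPM. SPINK4 was the lowest of the 5, at 0.521, 0.518 and 4.97 CPM and at 0.623, 0.951 and 1.58 CPM. The order of libraries that these genes share with MT2A follows from how they were chosen.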
